A study of Mus musculus with 2 samples.

Results

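The lineage transcription factors described here are 33 genes that specify the germ layers and the trophoblast and that embryonic stem cells are generally taken to keep silent. Each gene was represented by the rows of the allele-specific ATAC-seq table that overlap its body, with gene positions from RefSeq GRCm38.p6, whose primary sequence is mm10. Of the 33 genes, 30 had at least 1 row, and together they occupied 41 of the 43941 windows of 50 kb in the table. Foxa2, Otx2 and Hand1 had no row. ATAC-seq uses a transposase to cut and tag open DNA. The cells were F121-6, a female hybrid embryonic stem cell line with 1 chromosome set from 129 and 1 from castaneus (CAS) mice, cultured on inactivated mouse embryonic fibroblast feeders in serum with LIF. The 2 libraries, replicates 1 and 2, were made from 200000 cells each, and both carry the same genotype and culture. The comparison is therefore between the 129 and the CAS allele inside each library.

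The table gives whole numbers from 0 to 18 per window, allele and replicate. What is counted is not given in the sources used here. Between the alleles of a replicate the values varied less than independent reads would, with a variance of 0.327 and 0.468 times the binomial expectation in replicates 1 and 2 (windows of at least 4 counts), so they are read as small counts of open sites or intervals of unknown read depth. Column totals were 44026 and 59812 on the 129 allele, against 46128 and 59995 on the CAS allele (replicates 1 and 2, the order used for every pair of counts of an allele from here on). Nothing in the labels says that the replicates were separate cultures, so their spread may be technical. Expression was not measured in these libraries, and silence of the genes was not checked. Of the stem cell markers, all 7 had counts in the window of their start, with a median of 19 summed over the 4 columns. Of 9 fibroblast feeder markers with such a row, Postn was at 0 and the median was 5, with a highest value of 15 at Prrx1. Over gene bodies 12 of the 13 feeder markers had a count, from 0 at Postn to 49 at Fn1. The part of feeder DNA in the counts below was not tested.

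Lineage transcription factors bind DNA and switch on the programme of a tissue, often as partners of relatives from the same family. In pluripotent cells many of their promoters are rich in CpG dinucleotides and lie under Polycomb repression, often with active and repressive histone marks side by side, a state called bivalent. Otx2 differs from most of the others, since stem cells leaving the naive state are known to transcribe it.

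CpG content was a feature of the loci that the choice of genes did not use. In the 250 bases before the start, 23 of the genes had a RefSeq promoter sequence, with 2 to 29 CG dinucleotides and a median of 13. Gata4, Gata6, Sox17, Mixl1, En2, Pax3, Sox9, Myod1, Tbx5 and Hand1 had no such sequence. Over 27025 genes in the same table the median was 6. That set is wider than the 20665 coding genes of chromosomes 1 to 19 from which the other backgrounds come. At least 10 were present in 13 of 23 lineage promoters (56.5%) and in 38.2% of all promoters. The 4 promoters printed next belong to genes that are the only coding gene in their rows. Eomes and En1 had the highest counts among such genes with a promoter sequence and Nkx2-5 and Pax7 the lowest, so they show what a richly and a sparsely counted locus carries at its start. Capitals mark CG, which reads the same on both strands, and each sequence runs 5′ to 3′ on the strand of the gene (GRCm38.p6).
Eomes, chr9:118477939-118478188, + strand: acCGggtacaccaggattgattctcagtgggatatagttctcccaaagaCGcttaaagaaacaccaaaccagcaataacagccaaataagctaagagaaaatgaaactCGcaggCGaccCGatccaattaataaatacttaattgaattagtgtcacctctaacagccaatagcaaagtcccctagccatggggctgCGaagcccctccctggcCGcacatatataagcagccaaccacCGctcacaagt
En1, chr1:120602237-120602486, + strand: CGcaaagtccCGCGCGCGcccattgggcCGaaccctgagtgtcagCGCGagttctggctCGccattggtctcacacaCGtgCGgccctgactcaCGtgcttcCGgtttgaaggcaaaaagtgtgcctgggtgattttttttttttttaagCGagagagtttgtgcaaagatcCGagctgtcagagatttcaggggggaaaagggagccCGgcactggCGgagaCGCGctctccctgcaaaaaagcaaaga
Nkx2-5, chr17:26841566-26841815, − strand: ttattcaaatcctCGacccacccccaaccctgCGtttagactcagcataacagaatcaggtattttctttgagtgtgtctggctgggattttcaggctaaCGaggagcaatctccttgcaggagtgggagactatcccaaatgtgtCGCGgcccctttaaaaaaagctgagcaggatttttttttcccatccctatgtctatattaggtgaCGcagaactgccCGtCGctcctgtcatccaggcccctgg
Pax7, chr4:139832969-139833218, − strand: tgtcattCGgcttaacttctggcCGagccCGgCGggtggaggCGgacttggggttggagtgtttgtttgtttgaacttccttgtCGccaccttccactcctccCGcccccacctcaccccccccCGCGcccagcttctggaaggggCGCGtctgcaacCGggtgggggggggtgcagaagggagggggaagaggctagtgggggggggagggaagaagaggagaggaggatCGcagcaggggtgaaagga
Eomes had 8 CG, a number reached by 43.4% of all promoters, and En1 had 19, reached by 19.6%. Nkx2-5 also had 8, and Pax7 had 13, reached by 31.8%. For Nkx2-5 the start used lies well inside the annotated gene body, and for Pax7 it lies inside but near the 5′ end. Among these 4 genes CG number did not order the counts. A window of 50 kb is far wider than a promoter, so no count can be placed on these bases.

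Counts were found at most of the loci. Of the 30 genes with a row, 29 had at least 1 count in some column, against a background of 91.9% of 18577 coding genes with a row. A count in all 4 columns was present for 21 of 30 genes, or 70.0%, and for 74.7% of coding genes. Both shares lie near the background. Summed over the 4 columns, the genes ranged from 0 (Tbx5) to 34 (Pax6) with a median of 8, and the 41 windows held 277 counts in all. At 4 genes (T, Pax3, Pax7 and Nkx2-5) that sum was a single count.

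**Figure D1:**
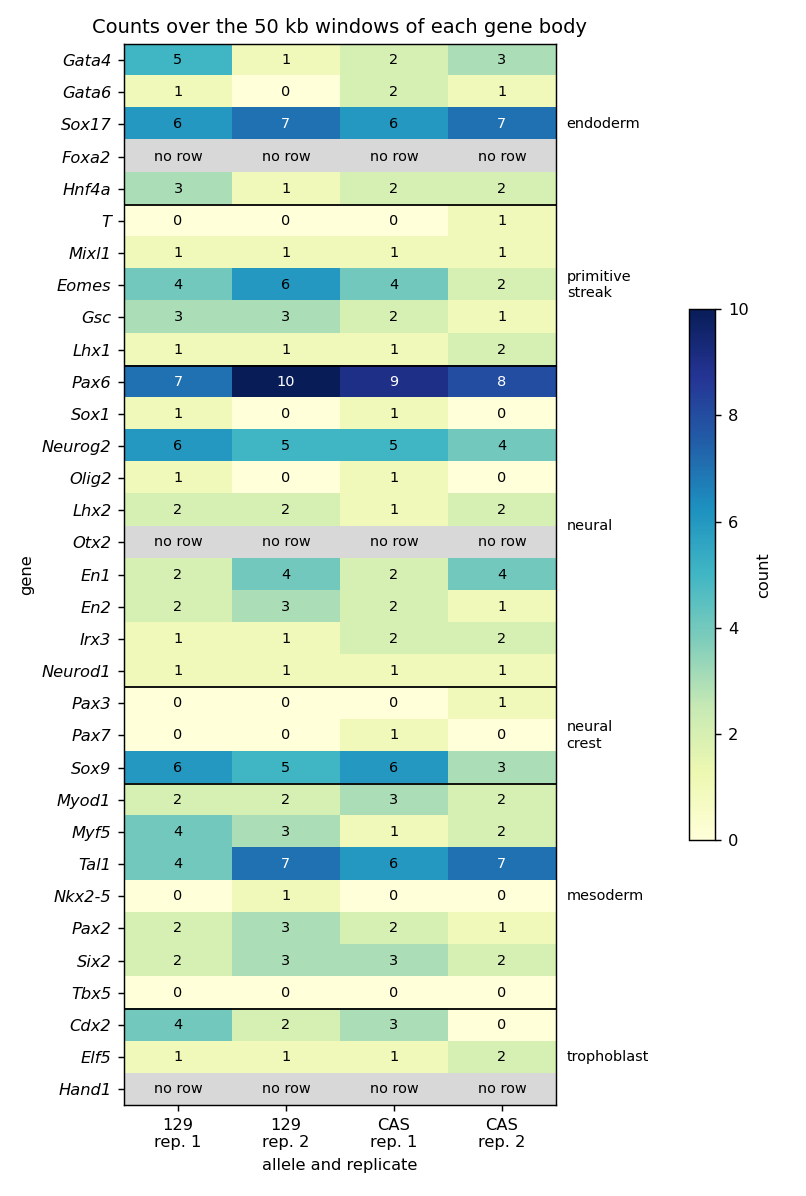
Counts over the 50 kb windows of each lineage gene body (rows, by germ layer), with 129 columns left and CAS columns right, replicates 1 and 2 within each. Darker cells hold more counts and grey marks genes with no row. Pax6, Sox17, Tal1, Neurog2 and Sox9 have the highest sums, with at least 3 counts in each column. T, Pax3, Pax7, Nkx2-5 and Tbx5 are almost empty in the windows present. Pax3 and Tbx5 each lack a window of their body, whose counts are unknown.

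The endoderm genes spanned nearly the whole range. Sox17, an HMG-box factor of definitive endoderm and its derivatives, had 6 and 7 counts on the 129 allele, against 6 and 7 on the CAS allele in its single window (chromosome 1, 4450001 to 4500000), in which it is the only coding gene. The alleles were tied in each replicate, and its 26 counts were the most of any lineage gene without a coding neighbour in its rows. Gata4, a zinc finger factor of endoderm and heart, had 5 and 1 on 129, against 2 and 3 on CAS over 3 windows, the first of which it shares with Fdft1 and Neil2, so the replicates pointed in opposite directions. Hnf4a, a nuclear receptor of visceral endoderm and liver, had 3 and 1 on 129, against 2 and 2 on CAS. All of these counts lay in the window of its start, which it shares with R3hdml, and none in its other window. Gata6, the zinc finger factor of primitive endoderm, stood low and alone. It had 1 and 0 on 129, against 2 and 1 on CAS (chromosome 18, 11050001 to 11100000), and the windows on either side held 0 in all 4 columns. Foxa2, the forkhead pioneer factor of endoderm and node, had no row of its own, and its neighbouring windows held 5 and 11 counts over the 4 columns.

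Primitive streak genes differed as widely. Eomes, a T-box factor of streak and trophoblast, had 4 and 6 on 129, against 4 and 2 on CAS (chromosome 9, 118450001 to 118500000). The alleles were tied in replicate 1 and 129 was higher in replicate 2. Gsc, the homeobox gene of the organizer, had 3 and 3 on 129, against 2 and 1 on CAS (chromosome 12, 104450001 to 104500000), with 129 higher in both replicates. Mixl1, a homeobox factor of the streak, had 1 and 1 on each allele in a window shared with Lin9. Lhx1, a LIM-homeobox gene of the organizer and kidney, had 1 and 1 on 129, against 1 and 2 on CAS in a window shared with Aatf, between neighbours at 0 in all 4 columns. T (brachyury), the T-box factor that defines nascent mesoderm, was nearly empty, with 0 and 0 on 129, against 0 and 1 on CAS in a window that also overlaps T2 (chromosome 17, 8400001 to 8450000).

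The neural genes held 95 of the 277 counts over 11 windows. Pax6, the paired-box regulator of eye and forebrain, led all lineage genes with 7 and 10 on 129, against 9 and 8 on CAS in a window that Elp4 also overlaps (chromosome 2, 105650001 to 105700000). The order of the alleles changed between replicates. Neurog2, a proneural bHLH gene, had 6 and 5 on 129, against 5 and 4 on CAS in a window shared with Zgrf1, with 129 higher by 1 count each time. The engrailed pair of the midbrain and hindbrain had middling counts. En1 had 2 and 4 on each allele, tied in both replicates, and En2 had 2 and 3 on 129, against 2 and 1 on CAS.

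The remaining neural genes were low. Lhx2, a LIM-homeobox gene of eye and forebrain, had 2 and 2 on 129, against 1 and 2 on CAS, all in its second window, and 0 in the window of its start. Irx3, which patterns the neural tube, had 1 and 1 on 129, against 2 and 2 on CAS, the same difference in each replicate. Neurod1, a bHLH gene of neurons and endocrine pancreas, had 1 and 1 on each allele. Sox1, an early marker of neuroectoderm, and Olig2, a bHLH gene of motor neurons and oligodendrocytes, shared a pattern: each had 1 and 0 on 129, against 1 and 0 on CAS, so both were counted in replicate 1 and at 0 in replicate 2. Otx2, the homeobox gene of forebrain, had no row, and the windows beside it held 2 and 1 counts over the 4 columns.

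Among the neural crest genes a contrast appeared between Sox9 and the paired-box genes. Sox9, which also directs cartilage and testis, had 6 and 5 on 129, against 6 and 3 on CAS in a window of its own (chromosome 11, 112750001 to 112800000). Pax3 had 0 and 0 on 129, against 0 and 1 on CAS, with 1 of its 2 windows in the table. Pax7 had 0 and 0 on 129, against 1 and 0 on CAS over 3 windows. Pax3 and Pax7 also mark muscle progenitors, and their bodies span 95870 and 96472 bases.

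Mesoderm genes ranged from empty to well counted. Tal1, the bHLH factor of blood, had 4 and 7 on 129, against 6 and 7 on CAS in a window shared with Pdzk1ip1. Myf5, a muscle determination gene, had 4 and 3 on 129, against 1 and 2 on CAS in a window shared with its relative Myf6 (chromosome 10, 107450001 to 107500000), with 129 higher in both replicates. Myod1, the other muscle determination gene here, had 2 and 2 on 129, against 3 and 2 on CAS in a window shared with Kcnc1. The alleles of Myod1 thus differed by at most 1 count. Six2, of nephron progenitors, had 2 and 3 on 129, against 3 and 2 on CAS, and changed order between replicates. Pax2, of the early kidney, had 2 and 3 on 129, against 2 and 1 on CAS over 3 windows. The heart genes were the lowest: Nkx2-5 had 0 and 1 on 129, against 0 and 0 on CAS, and Tbx5 was at 0 in all 4 columns in the 2 of its 3 windows that are in the table.

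Trophoblast genes were few. Cdx2, which specifies trophectoderm, had 4 and 2 on 129, against 3 and 0 on CAS in a window it shares with Urad and Flt3 (chromosome 5, 147300001 to 147350000), and 129 was higher in both replicates. Elf5, an ETS factor of trophoblast stem cells, had 1 and 1 on 129, against 1 and 2 on CAS. All of these counts lay in its second window, which also overlaps Cat, and the window of its start was empty. Hand1, of trophoblast giant cells and heart, had no row, with 7 and 1 counts over the 4 columns in the windows beside it.

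At the window of the gene start, which does not depend on gene length, the lineage genes were counted about as much as genes in general. Such a window could be assigned and was in the table for 27 of them, with a median of 8 counts over the 4 columns (range 0 to 34). Gata4, Pax3 and Tbx5 have rows but no listed strand and are left out. Over their bodies they had 11, 1 and 0 counts. For 53 relatives from the same families, of which 47 had a start window, the median was also 8 (0 to 34). For 11 of 15 pluripotency factors it was 15 (4 to 43), and for 16453 coding genes it was 7 (0 to 47). The pluripotency factors Zfp42 (43), Nanog (35) and Tfcp2l1 (35) lay above the highest lineage gene. A value of 20 or more was reached by 5 of 27 lineage genes (18.5%), namely Pax6, Sox17, Tal1, Neurog2 and Sox9, and by 5.80% of coding genes, while 2 lineage genes (7.41%) and 10.6% of coding genes were at 0. Where no other coding gene overlapped the window, the median was 5 over 17 lineage genes and 6 over 4876 coding genes. These are descriptions of the lists, without a test.

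**Figure D2:**
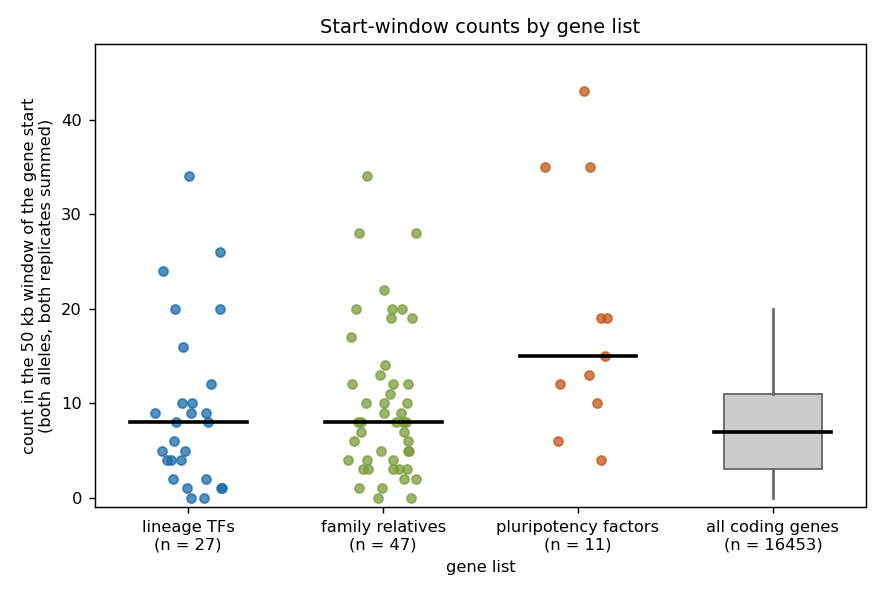
Count in the 50 kb window of the gene start, both alleles and replicates summed, for lineage transcription factors, family relatives and pluripotency factors (points, with the median as a black line) and all coding genes (box from the 25th to the 75th percentile, 3 to 11, whiskers from the 5th to the 95th, 0 to 20). The lineage genes have a median of 8, the pluripotency factors 15 and all coding genes 7.

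Counts were concentrated in the start window. The mean over lineage genes was 9.26 in the start window, 6.29 in the window before it and 3.67 in the window after it, along the chromosome and without regard to strand. Over all coding genes these means were 7.91, 6.01 and 5.95, and over the pluripotency factors 19.2, 14.6 and 8. In the 20 other windows within 500 kb, the mean of the lineage genes was below that of all coding genes in 14 and above it in 6. Both lists rest on the same libraries, and the lineage means come from 27 to 30 genes. The start window exceeded both of its neighbours at 14 of 25 lineage genes (56.0%) and at 41.6% of coding genes.

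**Figure D3:**
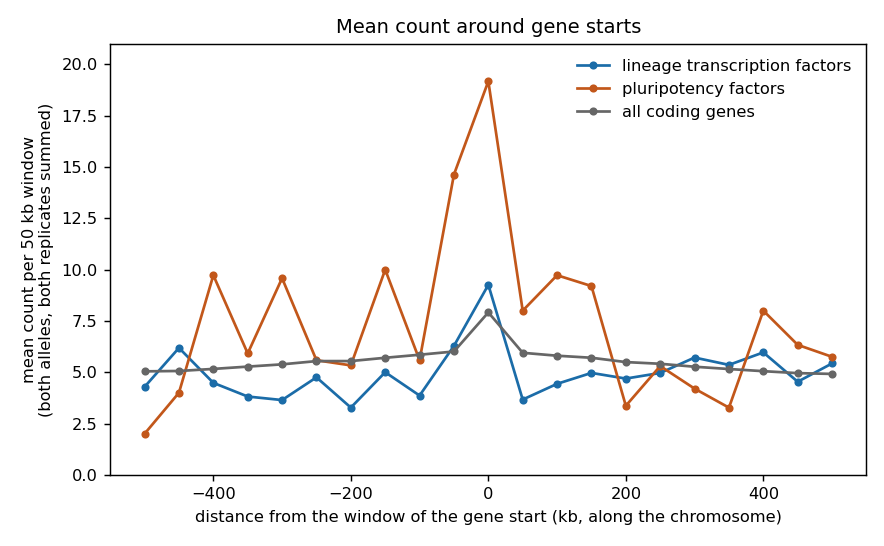
Mean count per 50 kb window (both alleles, both replicates summed) against distance from the window of the gene start, along the chromosome, for lineage transcription factors, pluripotency factors and all coding genes. The lineage genes reach 9.26 at the start and lie between 3.28 and 6.29 elsewhere, against 7.91 and 4.92 to 6.01 for all coding genes.

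The lineage loci, like the start windows of coding genes in general, did not share in the greater total of replicate 2. Their 41 windows held 135 counts in replicate 2 and 142 in replicate 1, a ratio of 0.951, whereas the ratio was 1.33 over all windows, 1.18 over windows with a coding gene and 1.76 over windows without one. At start windows the ratio was 0.953 for the lineage genes, 1.04 for their relatives, 1.22 for the pluripotency factors and 1.01 for all coding genes. Replicate 2 was higher at 10 lineage genes, lower at 11 and equal at 9. En1 was among those higher in replicate 2 (8 against 4 counts over both alleles). Cdx2 (2 against 7), Sox1 and Olig2 (each 0 against 2) were among those lower.

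The 129 and CAS alleles were close to balanced over the lineage loci. Summed over the 41 windows, the 129 share was 50.7% in replicate 1 (72 of 142 counts, exact Clopper-Pearson 95% interval 42.2 to 59.2%) and 54.1% in replicate 2 (73 of 135, 45.3 to 62.7%), a mean of 52.4% ± 2.38 (SD, n = 2). Over all windows it was 48.8% and 49.9%. The intervals cover binomial counting error only and include the shares of all windows. Since the values varied less than binomially between alleles, the intervals do not measure their spread exactly. The alleles were tied at 12 of 26 genes with a count in replicate 1 and at 7 of 26 in replicate 2, and they differed by at most 1 count at 22 and 18. Over all coding genes with a count, ties made up 34.2% and 28.5%, and differences of at most 1 count 75.7% and 70.4%.

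Few genes favoured the same allele in both replicates. Gsc, Neurog2, Myf5 and Cdx2 were higher on 129 each time, which is 4 of 30 (13.3%) beside a background of 13.3% of coding genes with a row. Gata6 and Irx3 were higher on CAS each time, 2 of 30 (6.67%) beside a background of 14.2%. At 4 genes (Gata4, Hnf4a, Pax6 and Six2) the replicates were opposite, as at 14.5% of coding genes. The 129 share thus equalled its background, and no excess on either allele is read from these counts. None of the 6 genes differed by 2 or more counts in each replicate, where the background is 3.48% for 129 and 3.85% for CAS. With 50 kb added on each side, which gives all 33 genes a row, 10 were higher on 129 (30.3%, background 18.7%) and 4 on CAS (12.1%, background 19.9%). With each column scaled by its total, 13 of 30 were higher on 129 (43.3%, background 40.4%) and 2 on CAS (6.67%, background 14.2%). Leaving out windows with another coding gene, which kept 29 windows, left 1 (Gsc) on 129 and 2 on CAS. The background under that rule was not computed, so nothing is read from these numbers.

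Set against a share of 50%, the directions of Myf5, Gata6 and Irx3 were on the side of their chromosome in both replicates. That of Gsc was so in replicate 2, while chromosome 12 was nearly even in replicate 1 (1971 counts on 129, 1970 on CAS). Those of Neurog2 and Cdx2 were not in replicate 1. The 129 share of chromosome 10, which carries Myf5, was 59.8% and 55.6%. It was 44.6% and 44.8% on chromosome 18 (Gata6), 44.5% and 41.8% on chromosome 8 (Irx3), and 50.0% and 52.0% on chromosome 12 (Gsc). On chromosome 3 (Neurog2) it was 48.3% and 50.2%, and on chromosome 5 (Cdx2) 48.7% and 52.5%. These chromosomes were thus below 50% in replicate 1, while both genes were higher on 129. Both were near the share over all windows in that replicate, 48.8%. The part of the chromosome in these differences was not tested.

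In the test across all windows no lineage window passed. edgeR's quasi-likelihood test, fitted on allele alone without pairing the alleles of a library, called 0 of 34417 windows with a count (0% called). Calls used Benjamini-Hochberg adjustment, and 910 windows (2.64%) had an unadjusted p under 0.05. Of the 32 lineage windows tested, 0 were called and 0 had an unadjusted p under 0.05. The lowest p among them was 0.199, at Myf5, with a log2 ratio of 129 over CAS of 1.16 (edgeR, adjusted p = 0.999). The unpaired DESeq2 Wald test called 0 windows, as did edgeR with the replicate as a block, which pairs the alleles. Limma on centred square roots called 78 windows (0.227%), 0 of them at a lineage gene. In limma 3 lineage windows had an unadjusted p under 0.05, at Myf5, Pax2 and Cdx2, each with 129 higher and an adjusted p of 0.544, while 8.09% of all windows had such a p, so the 3 of 32 are near the background.

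Bins of 1 Mb around the genes gave larger sums. The 33 bins that hold a lineage gene had 11 to 180 counts over the 4 columns with a median of 87, and all 2397 bins had a median of 83. The bin of Otx2 (chromosome 14, 48000001 to 49000000) was the lowest of the 33, with 0 and 3 counts on 129, against 4 and 4 on CAS in 12 windows. The bin of Mixl1 was the highest, with 45 and 45 on 129, against 49 and 41 on CAS. In 10 of the 33 bins 129 was higher in both replicates, beside a background of 23.7% of all bins, and in 9 CAS was higher, beside 33.3%.

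With the replicate as a block in edgeR, the bins of Cdx2, Pax3 and Gata6 had the lowest p among the 33. The Cdx2 bin (chromosome 5, 147000001 to 148000000) had 41 and 42 on 129, against 32 and 23 on CAS. The Pax3 bin (chromosome 1, 78000001 to 79000000) had 13 and 19 on 129, against 20 and 35 on CAS, and the Gata6 bin (chromosome 18, 11000001 to 12000000) had 11 and 7 on 129, against 18 and 15 on CAS. Both 129 values lay above both CAS values at Cdx2, and below them at Pax3 and Gata6. The bins were picked by their p, so this separation is no further support. These were the 3 lineage bins with an unadjusted p under 0.05 in the blocked fit. Their log2 ratios of 129 over CAS in that fit were 0.64 (adjusted p = 0.37), -0.74 (adjusted p = 0.502) and -0.82 (adjusted p = 0.654, edgeR over 2384 bins), so 0 of the 33 passed. Over all bins the blocked edgeR fit called 7 (0.294%), with 176 (7.38%) at an unadjusted p under 0.05, so the 3 of 33 are near the background. edgeR without the block called 0 bins (0%), with 70 at an unadjusted p under 0.05 and 0 of these at a lineage gene, and the DESeq2 Wald test called 0.

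**Figure D4:**
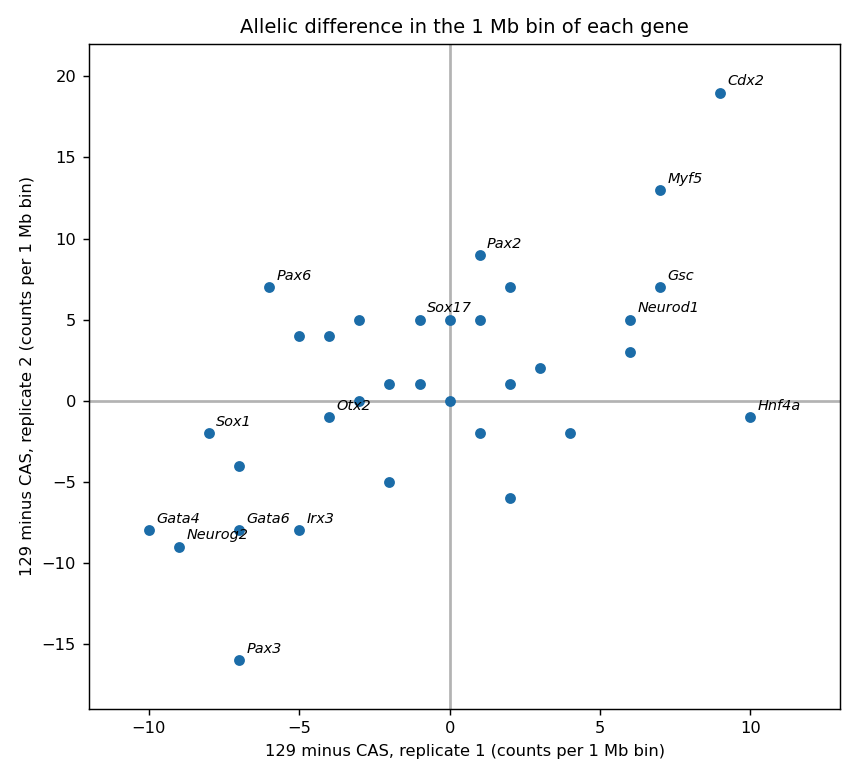
Difference between the 129 and CAS counts in the 1 Mb bin of each of the 33 lineage genes, replicate 1 on the horizontal axis and replicate 2 on the vertical axis, with some genes named. Cdx2 and Myf5 are among the 10 genes on the 129 side in both replicates. Gata4, Gata6, Neurog2, Irx3 and Pax3 are among the 9 on the CAS side in both.

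The window and the wider bin did not always point the same way. Neurog2 was higher on 129 in both replicates in its window, while its bin had 30 and 42 on 129, against 39 and 51 on CAS. Gsc (29 and 27 on 129, 22 and 20 on CAS), Myf5 (26 and 60 on 129, 19 and 47 on CAS) and Cdx2 kept 129 higher in both replicates in the bin. Gata6 and Irx3 (13 and 15 on 129, 18 and 23 on CAS) kept CAS higher. Whether window and bin differ was not tested, and each bin includes its window.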

How the data were processed

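ATAC-seq was measured in 2 replicates of F121-6. Per the submitters' processing notes, Bowtie2, MACS2, SAMtools, bedtools and the mm10 build were used, without stated roles. The deposited counts are whole numbers per 50 kb window, allele and replicate, with no visible normalization, and 0 further per-sample columns were present. The sources used here do not state how alleles were assigned or windows left out. The members and lists were chosen with earlier results of these data known, and all 33 genes are reported.

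Windows were assigned to a gene if they shared a base with its RefSeq body (chromosomes 1 to 19). The start window was the one with the gene's 5′ end, by the strand in the RefSeq promoter table, or the single window of the body where no strand was listed. Coordinates are 1-based.

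The 129 allele was tested over CAS with edgeR 4.0.16 (quasi-likelihood, TMM, windows with at least 1 count, Benjamini-Hochberg adjusted p threshold 0.05) over all windows and over 1 Mb bins. Alternatives used limma 3.58.1, DESeq2 1.42.0, a replicate block and other filters. edgeR with and without the block and DESeq2 were tried on simulated counts of windows and of 1 Mb bins, and limma on those of windows. The simulated counts were Poisson and so more variable between alleles than the deposited ones. The other filters, scalings and bin sizes were not simulated. Each library holds both alleles, so the replicate number pairs them, and only the fits with the replicate block used this pairing. Deviations from the mean of each allele correlated at r = 0.291 between the alleles of replicate 1 (43941 windows).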

Additional observations from a re-analysis of the deposited data

How the results depend on the processing

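Of the lineage windows and bins, 0 were called under each filter, scaling, bin size and tool tried, where a fit could be made. With few counts per window and 2 replicates a call was hard to reach. The absence of calls therefore does not show that the alleles are equal. The filter with a minimum count of 10 kept 0 lineage windows, so it says nothing about them. Over all windows the count of calls was 0, but 1 with library size alone and 78 with limma on centred square roots (33 higher on 129, 45 on CAS). Over 1 Mb bins it was 0, but 7 with the replicate block, which changed no call at a lineage gene. The cause was not tested.

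Genes with a count numbered 29, and 18 once windows with another coding gene were left out, which removes windows by construction. Leaving out either replicate gave 26. Genes higher on 129 in both replicates numbered 4, but 10 with 50 kb added on each side, 1 without windows shared with another coding gene, 13 with columns scaled by their totals and 0 at a difference of 2 counts. Of those 13, 9 were tied in a replicate before scaling, since the 129 columns have the smaller totals. Genes higher on CAS numbered 2, but 4 with 50 kb added and 0 at a difference of 2 counts. The 129 share without a replicate ran from 50.7% to 54.1%. The median start window held 8 counts, but 5 where the gene was the only coding gene, and 4 as the mean over the windows of the body. With a replicate left out and the rest doubled it ran from 6 to 8. The read depth behind the counts is unknown.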

Other observations

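Relatives of the lineage genes from the same families spanned a similar range. Hand2, a bHLH factor of heart and limb, had the highest start window, with 7 and 9 counts on 129, against 8 and 10 on CAS. Foxa1, a forkhead relative of Foxa2, had 7 and 8 on 129, against 6 and 7 on CAS, and Lhx9, a LIM-homeobox gene of gonad and limb, had 8 and 7 on 129, against 7 and 6 on CAS. Olig3 and Sox10 were at 0 in all 4 columns. Over gene bodies, 47 of 50 relatives with a row had a count (background 91.9% of coding genes). In both replicates 8 were higher on 129 (background 13.3%) and 10 on CAS (14.2%), and the replicates were opposite at 8 (14.5%).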
